A study of Mus musculus with 8 samples.

Results

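The nuclear hormone receptors are a superfamily of transcription factors, and their genes were followed here through the open-chromatin regions that the count table assigns to them. Of 41 receptor genes listed, 35 had at least 1 region, which gave 208 distinct regions of the 46624 in the table. The 5 steroid receptor genes held 23 of them and the 30 genes of the other subfamilies held 185. No region was assigned to Nr0b1, Esrrb, Nr2e1, Nr5a1, Hnf4a or Nr1i2. Regions are numbered within each gene in order of their start coordinate, and 53 of the 208 were assigned to other genes as well.

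ATAC-seq, an assay in which transposase inserts adapters wherever DNA is open, gave the counts. The study compared 4 groups of cells sorted by flow cytometry from C57BL/6 mice that carry a red fluorescent protein (RFP) reporter in the Foxp3 gene, the master factor of regulatory T cells (Tregs). They were RFP+ Tregs from the spleen of males, RFP+ Tregs from the visceral adipose tissue (VAT) of males, the same cells from the VAT of females, and RFP- CD4+ T cells from the VAT of males. Each group had 2 libraries, each made from cells pooled from 3 mice. A p-value of the main test below rests on the spread between pools of a group, estimated over all 4 groups together. It does not measure the spread between single mice. All mice carried the reporter, no age was given, and no library of female spleen was analysed here.

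Nuclear receptors bind DNA through a zinc-finger domain and most are switched by small lipid-soluble ligands. The steroid receptors bind cortisol-like hormones, mineralocorticoids, estrogens or progesterone, wait in the cytoplasm or nucleus with heat-shock chaperones, and act mainly as pairs of like molecules on inverted repeats. Most of the other ligand-bound members, such as the receptors for retinoic acid, thyroid hormone, vitamin D, fatty acids and oxysterols, pair with a retinoid X receptor and recruit corepressors until their ligand brings coactivators. In adipose tissue the family is known for control of fat storage, and in T cells glucocorticoids, retinoic acid and vitamin D are known modulators of Treg function.

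Library totals ran from 5724685 to 15805270 counts, and the receptor regions took between 0.412% and 0.46% of the counts of each library. Replicate 1 of male VAT Tregs stood apart in that 5.63% of its counts lay in regions shorter than 1000 bp, against 3.64% to 4.42% in the other 7 libraries. Values are CPM, in which counts are divided by library totals adjusted with trimmed-mean-of-M factors, and CPM per kb of region is used wherever genes are compared with each other. Of the receptor regions 44 were shorter than 1000 bp and 164 were longer, 136 overlapped their gene, and 22 had exactly the same width of 1802 bp. For the 188 regions at the 32 genes with a start site in the RefSeq promoter table, 24 held a start site, 29 more lay within 10 kb of one, 70 lay over 10 and up to 100 kb away, and 65 lay farther off.

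The sequences just upstream of 5 receptor starts are printed because each start lies in a region described below: Rorb, Nr3c2 and Rarg changed in a comparison, Esr1 is the one sex hormone receptor gene with a start inside a region, and Nr1d2 was the most accessible per kb among starts in regions of 1000 bp or more. They are the 250 bases before the start on the gene's own strand, from RefSeq on GRCm38.p6, with the GC box GGGCGG and the nuclear receptor half-site AGGTCA, on either strand, in capitals.
Rorb, minus strand, chr19:19111197-19111446: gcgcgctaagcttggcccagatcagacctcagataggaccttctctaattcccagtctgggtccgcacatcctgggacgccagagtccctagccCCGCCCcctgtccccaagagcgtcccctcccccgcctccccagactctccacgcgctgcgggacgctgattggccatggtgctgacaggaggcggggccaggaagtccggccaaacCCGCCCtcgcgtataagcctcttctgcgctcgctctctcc
Nr3c2, plus strand, chr8:76902080-76902329: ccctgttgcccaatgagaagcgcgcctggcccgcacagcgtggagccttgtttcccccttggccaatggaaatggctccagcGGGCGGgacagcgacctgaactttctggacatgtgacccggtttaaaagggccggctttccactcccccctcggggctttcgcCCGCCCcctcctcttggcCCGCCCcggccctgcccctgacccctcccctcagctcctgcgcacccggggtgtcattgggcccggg
Rarg, minus strand, chr15:102246501-102246750: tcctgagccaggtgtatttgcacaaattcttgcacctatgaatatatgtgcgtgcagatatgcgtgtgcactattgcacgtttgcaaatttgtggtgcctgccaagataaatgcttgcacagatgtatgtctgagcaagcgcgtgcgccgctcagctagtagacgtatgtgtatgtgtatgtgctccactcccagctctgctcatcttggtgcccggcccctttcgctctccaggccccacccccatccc
Esr1, plus strand, chr10:4611739-4611988: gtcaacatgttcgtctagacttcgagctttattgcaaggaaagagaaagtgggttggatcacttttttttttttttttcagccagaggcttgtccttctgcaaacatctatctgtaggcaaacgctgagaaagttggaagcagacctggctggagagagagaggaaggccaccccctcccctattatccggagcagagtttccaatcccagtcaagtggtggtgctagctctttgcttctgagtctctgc
Nr1d2, minus strand, chr14:18239107-18239356: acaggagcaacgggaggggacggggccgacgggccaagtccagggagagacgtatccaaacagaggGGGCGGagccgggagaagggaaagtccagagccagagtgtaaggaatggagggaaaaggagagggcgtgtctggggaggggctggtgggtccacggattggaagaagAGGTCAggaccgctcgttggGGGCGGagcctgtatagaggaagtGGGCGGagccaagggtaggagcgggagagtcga

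Nr1d2 and Nr3c2 each held 3 GC boxes in this window and Rorb held 2, whereas Rarg and Esr1 held 0. The G and C content was 68.4% for Nr3c2, 66% for Rorb, 63.6% for Nr1d2, 52.4% for Rarg and 47.6% for Esr1. Only Nr1d2 of these 5 held a half-site, at position -77 from the start. Over 56 starts of 37 receptor genes, 9 windows (16.1%) held AGGTCA, against 14% of all 32851 windows, and 23 (41.1%) held GGGCGG, against 32.7%, with both strands searched; the letters of the motifs cannot overlap. A start site lay inside a region for 27 of the 56 receptor starts (48.2%, at 21 genes), against 39.6% of all starts. Starts inside regions were richer in G and C than those outside, with medians of 63.6% and 55.2% for the receptors and 60% and 48.4% for all.

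Few receptor regions differed between the groups. In the edgeR quasi-likelihood test with Benjamini-Hochberg adjustment over 45709 regions, 205 receptor regions were tested and 3 fell under the low-count filter (Esr1 region 4 and Hnf4g regions 2 and 10). Calls are those with an adjusted p below 0.05. In bulk libraries a smaller share of cells with an open region and a lower opening in each cell cannot be told apart. Between male and female VAT Tregs 2 receptor regions were called higher in males, 0.976% of those tested, where 3.26% of all regions were called in either direction and 2.04% were called higher. None was called lower, where 1.21% of all were; without adjustment, 8 were higher and 12 lower at p under 0.05, and the calls were 1 and 0 by the DESeq2 Wald test and 2 and 2 by limma-voom. Against male spleen Tregs, 4 were called higher and 1 lower in male VAT Tregs (2.44%), where the background was 4.64% higher and 2.09% lower. Against male VAT CD4+ T cells, 4 were called higher and 3 lower (3.41%), where the background was 5.18% higher and 2.51% lower. In all 3 comparisons the receptors' share was under that of all regions, which was 6.73% in either direction against spleen and 7.69% against CD4+ T cells. The 111 tested regions of Esrrg, Thrb, Rarb and Hnf4g had 0%, 0% and 0.901% called between the sexes, against spleen and against CD4+ T cells. The other 31 receptor genes gave 2, 5 and 6 calls from 94 tested regions, or 2.13%, 5.32% and 6.38%. These were near the shares of all regions, and with so few calls the remaining distance rests on very few regions. No difference from the background was tested. The shares of all regions depended on single libraries. The calls over all regions fell from 1489 to 410 and 423 between the sexes without female replicate 1 or 2. They fell from 3078 to 1709, 1715 and 1605 against spleen without male VAT Treg replicate 1, spleen replicate 1 or spleen replicate 2, and from 3514 to 1644, 1902 and 2197 against CD4+ T cells without male VAT Treg replicate 1, CD4+ replicate 1 or CD4+ replicate 2. Short regions were called more often in general and made up 41 of the 205 tested receptor regions, against 16363 of all 45709. Among receptor regions shorter than 1000 bp the called share was 4.88%, 7.32% and 2.44% in these comparisons, where all short regions gave 5.41%, 11.3% and 14%. Among the longer receptor regions it was 0%, 1.22% and 3.66%, where all longer regions gave 2.05%, 4.21% and 4.17%, and of the 164 behind that 0% between the sexes, 4 were higher and 11 lower with p under 0.05 before adjustment.

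The 14 calls fell on 12 regions of 7 genes: Nr3c1, Nr3c2, Rorb, Nr5a2, Rarg, Ppard and Hnf4g. The median log2 fold change over the tested receptor regions was 0.05 between the sexes (0.01 for all regions), 0.08 against spleen (-0.01) and -0.04 against CD4+ T cells (-0.02). The 3 comparisons share the male VAT Treg libraries and are not independent of each other. The steroid receptors gave 6 of the 14 calls from 22 tested regions, all higher in male VAT Tregs: 1 between the sexes, 3 against spleen and 2 against CD4+ T cells. These are 4.55%, 13.6% and 9.09% of the 22, where 3.26%, 6.73% and 7.69% of all regions were called. The other subfamilies gave 8 calls from 183 tested regions, 4 higher and 4 lower. No difference between the steroid receptors and the rest was tested.

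**Figure D1:**
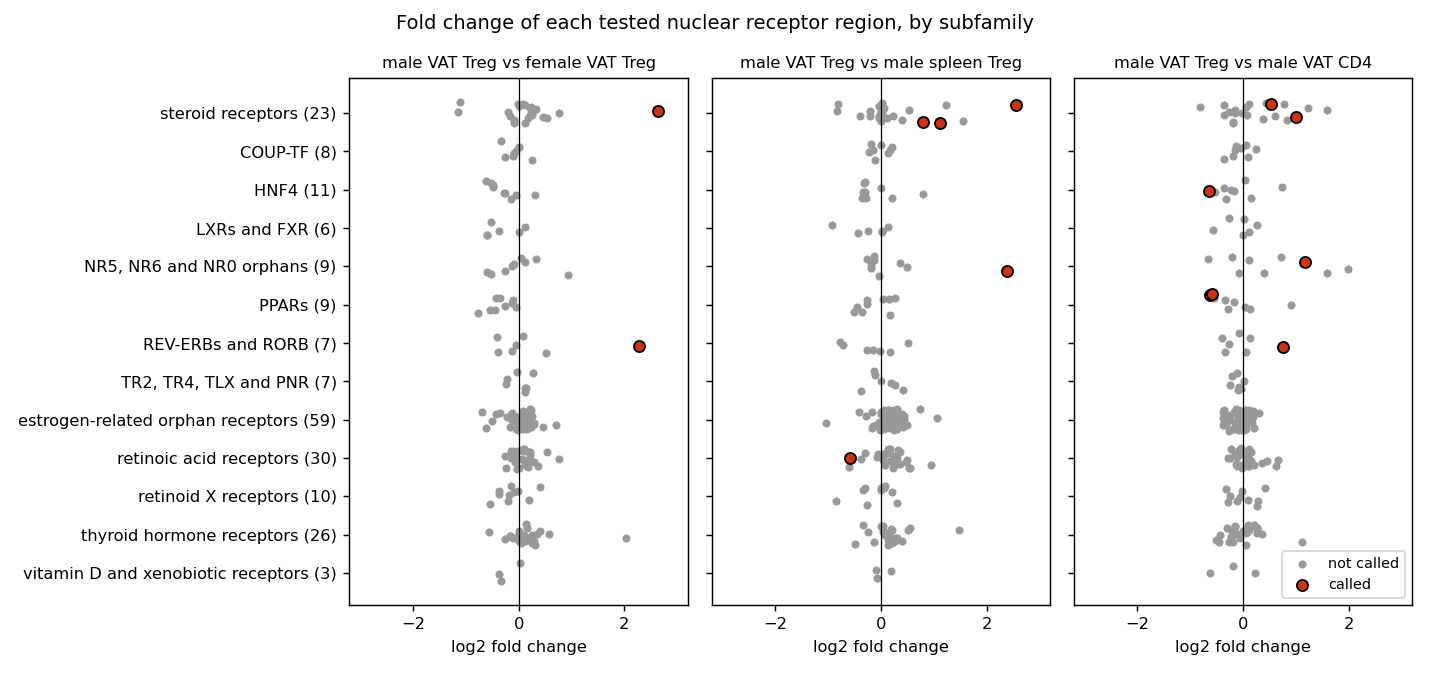
Each point is 1 tested receptor region, placed by its log2 fold change (horizontal axis) and its subfamily (vertical axis, with the number of regions in brackets, tested or not), in 3 comparisons of male VAT Tregs with another group; large red points passed an adjusted p of 0.05 in edgeR. Most points lie near 0 and 2, 5 and 7 are called from left to right.

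The glucocorticoid receptor gene Nr3c1, whose product is the receptor for corticosterone in mice, carried most of the steroid receptor calls. Its 7 regions all overlap the gene body at chr18:39410545-39519421, and 5 of them are shorter than 1000 bp. The strongest of them, region 3 (chr18:39487195-39493158), read 63.9 and 74.1 CPM for spleen Tregs, 77.2 and 61.4 for male VAT Tregs, 69.2 and 69.6 for female VAT Tregs and 58.2 and 74.1 for CD4+ T cells. All 4 groups overlapped there, with group means between 66.1 and 69.4 CPM, and no comparison was called. At 11.5 CPM per kb this region ranked at percentile 96.5 of all regions of 1000 bp or more. The group means differed there by less than the 2 libraries did in each group but female VAT Tregs.

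The regions of Nr3c1 that were called lie beside this block or at the higher-coordinate end of the gene. Region 7 (chr18:39517616-39521287), which spans that end, read 15.4 and 17.1 CPM for spleen Tregs, 33.1 and 23.5 for male VAT Tregs, 21.5 and 26.1 for female VAT Tregs and 14.3 and 23.1 for CD4+ T cells. Both male VAT Treg libraries exceeded both spleen libraries, and the range of male VAT Tregs overlapped that of females. The log2 fold change against spleen was 0.80 ± 0.20 (± is the standard error throughout; edgeR adjusted p = 0.00252), against CD4+ T cells 0.59 ± 0.21 (adjusted p = 0.0537) and against females 0.26 ± 0.20 (adjusted p = 0.635).

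Region 4 (chr18:39496539-39496840, 302 bp) lies a few kb from region 3. It read 4.73 and 3.94 CPM for spleen Tregs, 11.5 and 6.82 for male VAT Tregs, 6.48 and 6.34 for female VAT Tregs and 3.66 and 5.48 for CD4+ T cells. Male VAT Tregs were the highest group here and did not overlap any other. The change was 1.12 ± 0.28 against spleen (edgeR adjusted p = 0.00340) and 1.00 ± 0.31 against CD4+ T cells (adjusted p = 0.0210), while that against females was 0.54 ± 0.28 (adjusted p = 0.386).

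Region 6 (chr18:39517271-39517444, 174 bp) sits just before region 7 and was the steroid receptor region called between the sexes. It read 3.23 and 2.13 CPM for male VAT Tregs, from 51 and 20 counts, and 0.598 and 0.235 for female VAT Tregs, from 6 and 2 counts. The spleen libraries read 0.606 and 0.358 CPM and those of CD4+ T cells 1.16 and 1.15. Female VAT Tregs overlapped spleen Tregs, and both male VAT Treg libraries lay above the other 6. The log2 fold change was 2.63 ± 0.71 against females (edgeR adjusted p = 0.0138), 2.55 ± 0.68 against spleen (adjusted p = 0.00673) and 1.23 ± 0.66 against CD4+ T cells (adjusted p = 0.327). These are low counts, and per kb the region ranked at percentile 1.91 of all regions shorter than 1000 bp.

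Every one of these Nr3c1 calls was lost without replicate 1 of male VAT Tregs, the library with the larger share of counts in short regions. Against spleen the changes then were 0.52 at region 7 (adjusted p = 0.172), 0.68 at region 4 (adjusted p = 0.277) and 2.19 at region 6 (adjusted p = 0.189). At region 6 the change against females was then 2.29 (adjusted p = 0.233), and at region 4 the change against CD4+ T cells was 0.55 (adjusted p = 0.527). Other libraries decided a call as well: region 6 between the sexes was lost without either female library (adjusted p = 0.132 and 0.39) and against spleen without spleen replicate 2 (0.135), region 4 against spleen was lost without spleen replicate 2 (0.129) and against CD4+ T cells without CD4+ replicate 1 (0.302), and region 7 without spleen replicate 1 (0.0863). The direction was the same in each of these fits. Other settings ended calls too: region 6 between the sexes did not pass with loess offsets (adjusted p = 0.0661), the DESeq2 Wald test (0.0831) or limma on the deposited values (0.0624), and against spleen it did not pass with loess offsets (0.0728) or limma on the deposited values (0.0605). Region 4 did not pass with scaling on the short regions (0.0629 against spleen and 0.153 against CD4+ T cells) or the DESeq2 Wald test (0.0665 and 0.136), nor, against CD4+ T cells, with limma-voom (0.0669). Region 7 did not pass with scaling on the short regions (0.0717). What part the make-up of that library had in the calls was not tested further.

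The remaining 3 regions of Nr3c1 are 82 bp each and were not called. Region 1 read 0.485 to 3.09 CPM over the 8 libraries, region 2 read 0.193 to 2.09 and region 5 read 0 to 1.9, the 0 being 1 spleen library. Taken over the whole gene, 6 of 7 regions had a fold change above 0 in each comparison, with medians of 0.26 between the sexes, 1.12 against spleen and 0.83 against CD4+ T cells. Without male VAT Treg replicate 1, 3 of 7 lay above 0 between the sexes, and with loess offsets 4 of 7.

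**Figure D2:**
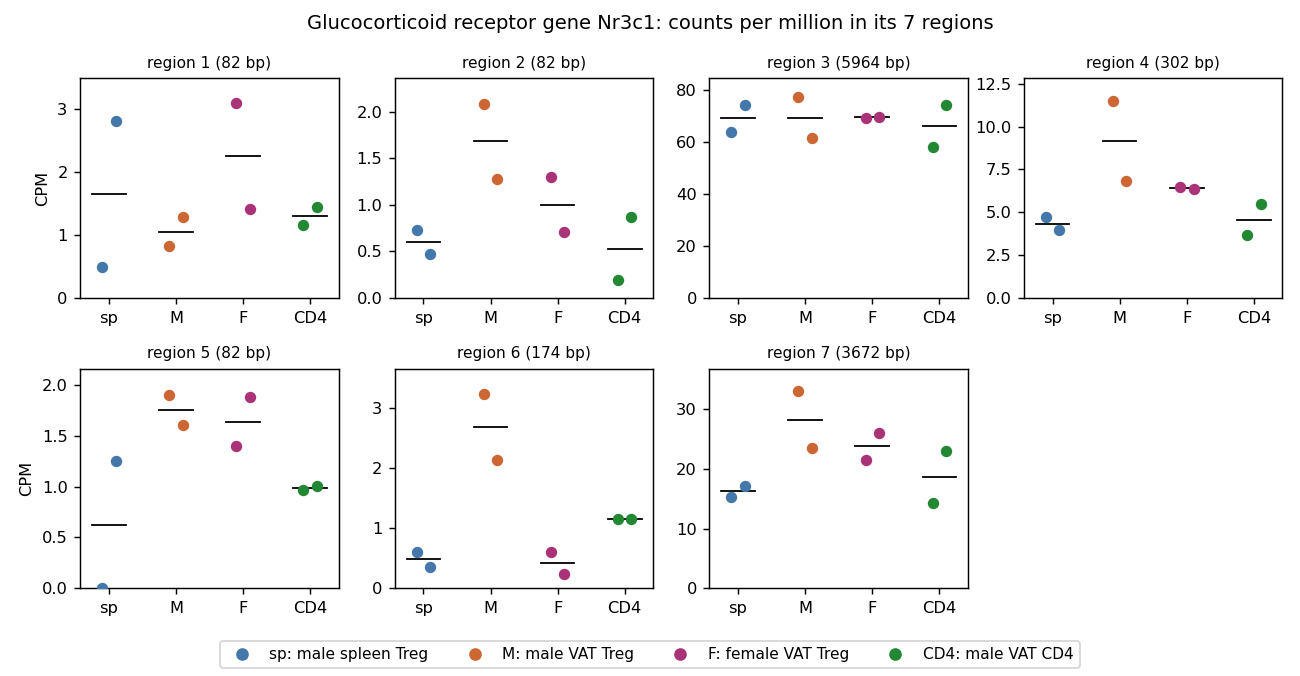
CPM (vertical axis) of the 7 Nr3c1 regions in each of the 8 libraries; points are libraries, black lines are the means of the 2 libraries of a group, and each panel has its own scale from 0. Region 3 overlaps in all groups, while in regions 4, 6 and 7 the highest point is a male VAT Treg library.

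The mineralocorticoid receptor gene Nr3c2, which encodes the receptor for aldosterone that also binds glucocorticoids, had the highest CPM of any receptor start. Its start lies in region 2 (chr8:76898063-76906340), which read 113 and 126 CPM for spleen Tregs, 129 and 119 for male VAT Tregs, 96.1 and 112 for female VAT Tregs and 78.8 and 92.6 for CD4+ T cells. CD4+ T cells were the lowest group and did not overlap any Treg group, while the ranges of spleen and male VAT Tregs overlapped. The log2 fold change of male VAT Tregs over CD4+ T cells was 0.53 ± 0.17 (edgeR adjusted p = 0.0272), against 0.26 ± 0.17 over females (adjusted p = 0.545) and 0.06 ± 0.17 over spleen (adjusted p = 0.907). Its significance went without male VAT Treg replicate 1 (0.47, adjusted p = 0.118), without CD4+ replicate 1 (0.42, adjusted p = 0.336), with the 4 libraries alone (adjusted p = 0.127), with a replicate block (adjusted p = 0.0577) and with scaling on the short regions (0.30, adjusted p = 0.305). The other 4 regions of Nr3c2 lie 5.1 to 305.3 kb from the start, 3 of them at 7.22 to 20.8 CPM, and none was called.

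The sex hormone receptors showed no called region in any comparison. The start of the estrogen receptor gene Esr1 lies in region 1 (chr10:4610949-4614338), which read 14.3 and 13.3 CPM for spleen Tregs, 12.9 and 14.2 for male VAT Tregs, 11.8 and 13.9 for female VAT Tregs and 13.7 and 17.0 for CD4+ T cells. The groups overlapped, and the log2 fold change between the sexes was 0.08 ± 0.22 (edgeR adjusted p = 0.943). At 4.09 CPM per kb this start was close to the median of all regions of 1000 bp or more, 4.04. Region 2 of Esr1, 18.6 kb downstream of the nearest start (chr10:4630601-4634390), was the stronger one and read 21.3 and 22.2 CPM for spleen Tregs, 17.3 and 20.47 for male VAT Tregs, 15.3 and 16.8 for female VAT Tregs and 20.03 and 23.1 for CD4+ T cells. Both female libraries were the lowest of the 8 there, but the change between the sexes was 0.23 ± 0.21 with an adjusted p of 0.718 in edgeR.

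The gene of the other estrogen receptor, Esr2, had 2 short regions, 18.8 and 19.5 kb upstream of its nearest start and assigned to Tex21 too. Region 1 (219 bp) read 4.61 and 2.63 CPM for spleen Tregs, 5.58 and 4.37 for male VAT Tregs, 3.59 and 5.05 for female VAT Tregs and 3.66 and 3.17 for CD4+ T cells. The change between the sexes was 0.23 ± 0.35 (edgeR adjusted p = 0.874) and turned to -0.01 without female replicate 1. Region 2 (140 bp) lay between 2.89 and 4.04 CPM in all 8 libraries. The progesterone receptor gene Pgr had 5 regions, 30.6 to 94.7 kb from its start and none at it. Its 3 longer regions, with 4.001 to 10.4 CPM, had changes between the sexes of -0.16, 0.45 and 0.32, with adjusted p-values of 0.517 or more. With standard errors of 0.21 to 0.39 for these regions between the sexes, changes of their size were not detectable.

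Among the REV-ERB and ROR receptors, which repress or activate from one shared element in the circadian clock, Rorb was called at both of its regions. Rorb encodes an orphan receptor known mainly from retina and brain. Its start region 1 (chr19:19108799-19112546) read 16.6 and 15.1 CPM for spleen Tregs, 22.6 and 22.7 for male VAT Tregs, 17.0 and 14.4 for female VAT Tregs and 11.9 and 14.7 for CD4+ T cells. Male VAT Tregs stood above the other 6 libraries, with changes of 0.75 ± 0.22 against CD4+ T cells (edgeR adjusted p = 0.0126), 0.52 ± 0.21 against females (adjusted p = 0.165) and 0.52 ± 0.20 against spleen (adjusted p = 0.110). This did not pass without male VAT Treg replicate 1 (adjusted p = 0.0545), without CD4+ replicate 1 (0.223) and with scaling on the short regions (0.150).

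Region 2 of Rorb showed another order of groups, with females apart. It is 80 bp long (chr19:19447883-19447962), lies 336.7 kb upstream of the start, and read 5.70 and 4.84 CPM for spleen Tregs, 2.47 and 4.05 for male VAT Tregs, 0.698 and 0.587 for female VAT Tregs and 3.85 and 4.47 for CD4+ T cells. Both female libraries, with 7 and 5 counts, lay below all 6 male libraries, whose counts were 20 to 81. The log2 fold change of males over females was 2.28 ± 0.51 (edgeR adjusted p = 0.00109), against -0.71 ± 0.37 over spleen (adjusted p = 0.287) and -0.39 ± 0.41 over CD4+ T cells (adjusted p = 0.720). The sex call held in 13 of 14 alternative fits and was lost without female replicate 2 (adjusted p = 0.0664). Per kb it was the most accessible short receptor region, at percentile 99.4 of its width class. No overlap with the Rorb gene body was seen, and the assignment to Rorb is that of the count table.

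Nr5a2, which encodes the orphan receptor LRH-1 known from liver and gut, had 4 regions, all 55.2 to 114.4 kb from its start, and 2 were called. Region 2 (chr1:136857388-136860449), within the gene, read 10.3 and 11.2 CPM for spleen Tregs, 13.1 and 17.6 for male VAT Tregs, 14.5 and 15.1 for female VAT Tregs and 4.24 and 8.94 for CD4+ T cells. CD4+ T cells lay below every Treg library, and the change was 1.16 ± 0.25 (edgeR adjusted p = 3.01e-04). It was lost without CD4+ replicate 1, where it was 0.76 (adjusted p = 0.142), and held in the other 13 alternatives. Region 1 (chr1:136839347-136839428, 82 bp) rests on 1 and 7 counts in spleen Tregs against 27 and 15 for male VAT Tregs, or 0.121 and 0.418 against 1.71 and 1.6 CPM. Its change of 2.39 ± 0.79 (adjusted p = 0.0435) was called in 2 of 14 alternatives and lost without any 1 of the 4 libraries (adjusted p = 0.0855 to 0.246).

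The retinoic acid receptor gene Rarg had the one region called lower in VAT than in spleen. Region 3 (chr15:102244196-102248733) holds a Rarg start and is assigned to Itgb7 too, the gene of the integrin beta chain known for gut homing. It read 32.0 and 36.3 CPM for spleen Tregs, 24.7 and 20.8 for male VAT Tregs, 28.5 and 25.4 for female VAT Tregs and 18.7 and 23.5 for CD4+ T cells. Spleen Tregs were above all VAT libraries, and the change of male VAT Tregs was -0.58 ± 0.19 (edgeR adjusted p = 0.0364). It was lost in 9 of 14 alternatives, among them the fits without male VAT Treg replicate 2 (-0.47, adjusted p = 0.154), without spleen replicate 1 (adjusted p = 0.0962) and without spleen replicate 2 (-0.48, adjusted p = 0.327). Whether the signal belongs to Rarg or to Itgb7 cannot be told from the counts.

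The 3 regions called lower in male VAT Tregs than in CD4+ T cells belong to Ppard and Hnf4g. Ppard encodes the fatty acid sensor PPAR delta, a driver of fatty acid oxidation. Its region 1 (chr17:28208348-28215799), 17 kb upstream of the gene and also assigned to Def6 and Zfp523, read 21.03 and 13.97 CPM for male VAT Tregs and 23.3 and 31.3 for CD4+ T cells, with 19.1 to 21.6 in the other Treg libraries; the change was -0.63 ± 0.20 (edgeR adjusted p = 0.0318). Region 6 of Ppard (chr17:28255207-28258918), within the gene, read 22.1 and 14.4 CPM for male VAT Tregs, 26.8 and 28.8 for CD4+ T cells and 25.8 and 24.5 for female VAT Tregs, and changed by -0.59 ± 0.20 (adjusted p = 0.0494). Region 4 of Hnf4g, the gene of a hepatocyte nuclear factor, lies 285 kb outside the gene (chr3:3219370-3223043) and changed by -0.66 ± 0.22 (adjusted p = 0.0485). All 3 lay near the threshold: they kept their call in 7, 4 and 2 of 14 alternatives, and both Ppard calls were lost without male VAT Treg replicate 2 (-0.39, adjusted p = 0.297, and -0.34, adjusted p = 0.387) and without CD4+ replicate 2 (adjusted p = 0.481 and 0.254). Region 6 was lost without CD4+ replicate 1 too (adjusted p = 0.125), and Hnf4g region 4 without any 1 of the 4 libraries (adjusted p = 0.0523 to 0.447).

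**Figure D3:**
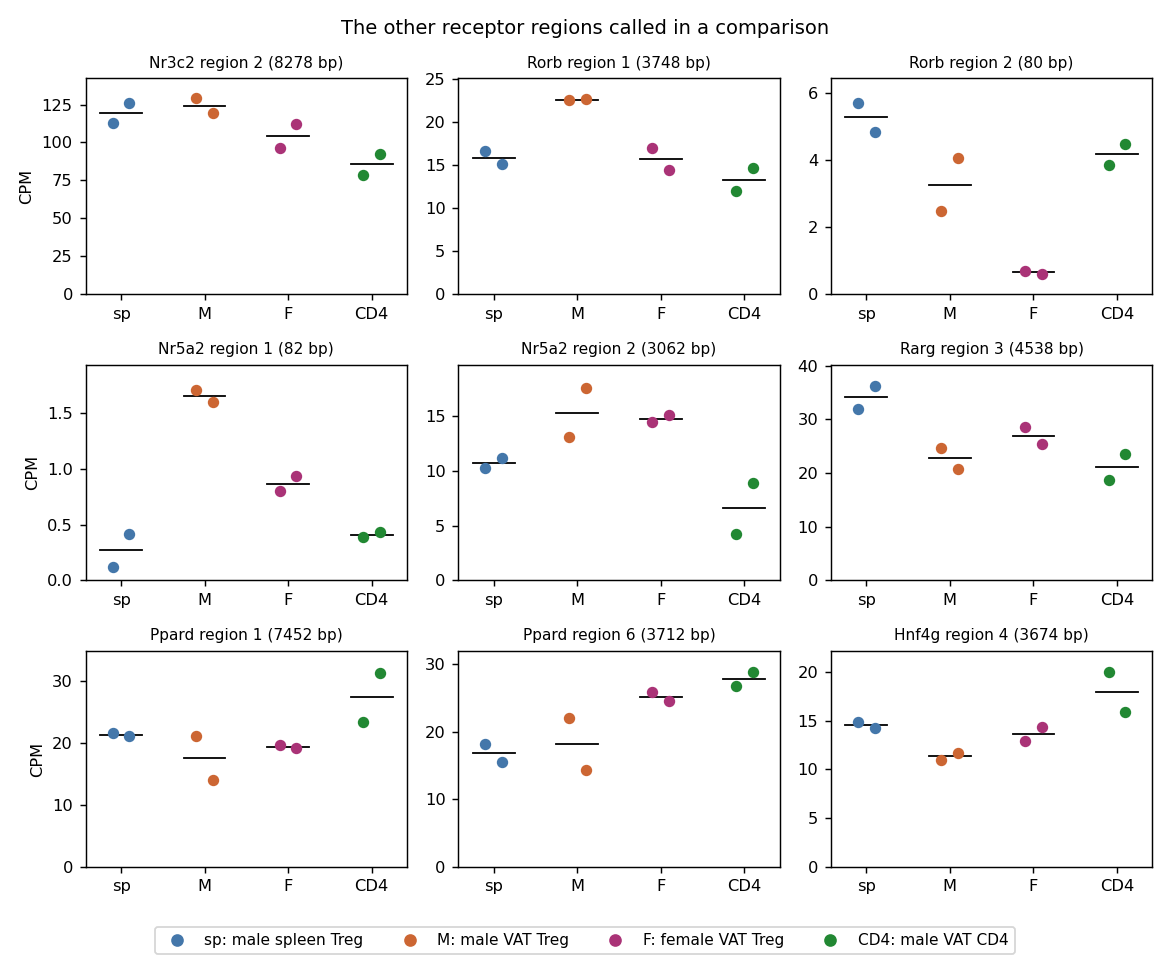
CPM (vertical axis) in each of the 8 libraries for the 9 called receptor regions outside Nr3c1; points are libraries, black lines group means of 2 libraries, and each panel has its own scale from 0. Female VAT Tregs are lowest at Rorb region 2, spleen Tregs highest at Rarg region 3 and CD4+ T cells lowest at Nr3c2 region 2 and Nr5a2 region 2.

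Many receptors with a known part in T cells or fat had no called region. The retinoid X receptors, the shared partners of the family, had 10 regions at Rxra, Rxrb and Rxrg with none called. The smallest p among them was at the Rxrb start region, which is assigned to Col11a2, Ring1 and other genes as well and read 51.6 and 37.1 CPM for male VAT Tregs and 60.7 and 69.7 for female VAT Tregs (-0.55, edgeR adjusted p = 0.0549). The 6 regions of the oxysterol receptors Nr1h2 and Nr1h3 and of the bile acid receptor Nr1h4 had none called; region 1 of Nr1h2 read 29.0 and 24.4 CPM in male and 36.5 and 41.1 for female VAT Tregs, with a change of -0.53 and an adjusted p of 0.0987. The vitamin D receptor gene Vdr had 2 regions, of which the one at its start is 176 bp long and read 2.67 to 6.16 CPM. The retinoic acid receptor gene Rara, which mediates the known effect of retinoic acid on Treg induction, read 27.8 to 45.6 CPM at its longer start region, with changes of -0.08, -0.05 and -0.04 in the 3 comparisons.

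The PPARs had 9 tested regions at Ppara and Ppard, and all 9 had a fold change under 0 between the sexes, with a median of -0.35; none was called, and 3 had an unadjusted p under 0.05. The DESeq2 Wald test and limma-voom called 0 of them as well. Regions of a gene are not independent, and of all tested regions 23391 of 45709 lay above 0. Summed over its regions, Ppard read 97.9 and 68.5 CPM for male and 103 and 105 for female VAT Tregs. Ppara read 27.6 and 21.1 CPM against 27.6 and 31.6. Replicate 2 of male VAT Tregs was thus the lowest VAT Treg library at both genes. The lean was not followed without single libraries. Ppara, the fatty acid sensor of liver and muscle, had no region at its start, and its strongest region lies 74.3 kb from it at 17.2 to 26.2 CPM. The nuclear receptors of the COUP-TF group, Nr2f1, Nr2f2 and Nr2f6, had 8 regions with no call in any comparison and no unadjusted p under 0.05; the strongest, region 1 of Nr2f6, read 49.9 to 73.5 CPM over the libraries.

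The remaining genes had no call either, and their strongest regions are given by their range over the 8 libraries. Nr1d1, the gene of REV-ERB alpha, read 17.7 to 36.5 CPM at its start, and Esrra, the gene of an orphan receptor that drives mitochondrial genes, read 21.6 to 36.5 at its start. Nr1h3 read 42.9 to 63.7 CPM at a region within the gene that is assigned to Acp2 and Madd too. The xenobiotic receptor gene Nr1i3 read 40.8 to 56.3 CPM at a region just outside it that is assigned to Fcer1g too. Among the lower ones, Nr2e3 reached 20.49 to 33.3 CPM, Nr2c1 14.4 to 21.2 and the thyroid hormone receptor gene Thra 3.41 to 8.1. The single region of Nr0b2, a corepressor-like orphan without a DNA-binding domain, read 14.2 to 29.1 CPM, with a change between the sexes of -0.60 (edgeR adjusted p = 0.0714).

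Per kb, receptor starts of 1000 bp or more spanned from 3.45 CPM at Rxrg to 18.0 at Nr1d2. The start of Nr1d2, which encodes the heme receptor REV-ERB beta, a repressor of the clock, was the densest, at percentile 99.3 of all regions of 1000 bp or more. It read 81.5 and 91.4 CPM for spleen Tregs, 106 and 87.5 for male VAT Tregs, 94.4 and 88.4 for female VAT Tregs and 86.3 and 99.2 for CD4+ T cells, with overlapping groups. The orphan receptor gene Nr2c2 followed at 13.9 CPM per kb, then Nr3c2 at 13.1 and Nr6a1, the gene of a germ cell orphan receptor, at 11.3. These 4 lay above 7.85 CPM per kb, the 90th percentile of all regions of 1000 bp or more. The 21 start regions of that width had a median of 4.72 CPM per kb, against 3.97 for 133 receptor regions without a start. Among short regions, which have higher values per kb, the starts of Nr1h2 (35.0 CPM per kb) and Rara (30.4) ranked at percentiles 98.9 and 98.0 of their class.

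**Figure D4:**
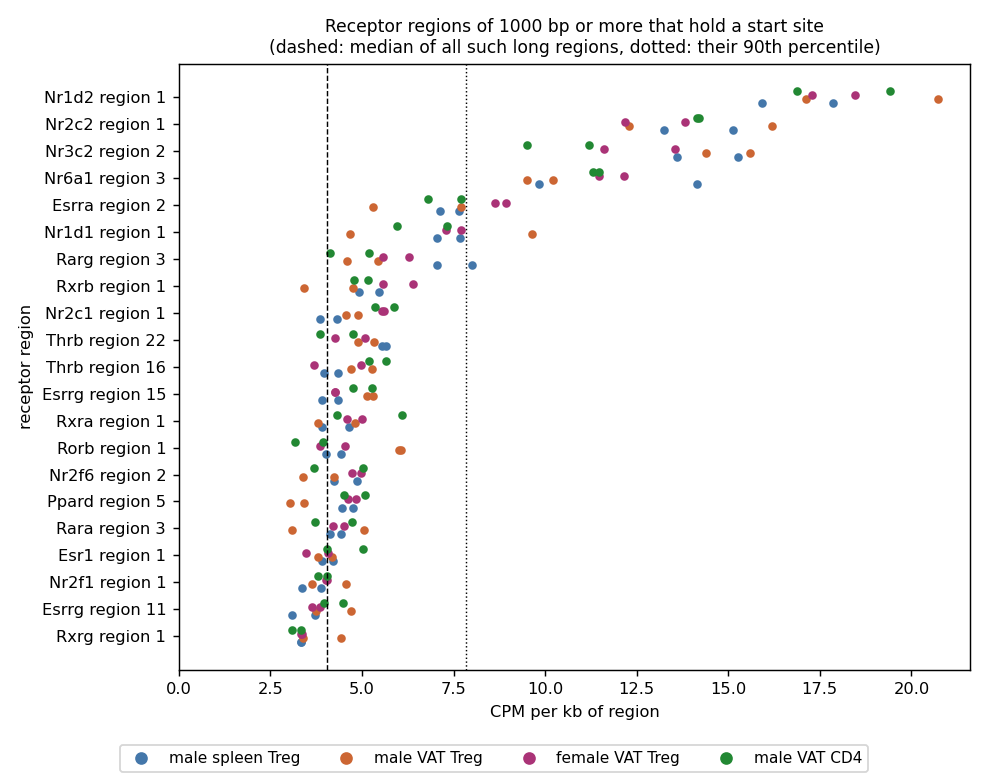
CPM per kb (horizontal axis) in each of the 8 libraries for the 21 receptor regions of 1000 bp or more that hold a start site (vertical axis, sorted by their mean); colours are the 4 groups, the dashed line is the median (4.04) and the dotted line the 90th percentile (7.85) of all 29346 regions of that width. Nr1d2, Nr2c2, Nr3c2 and Nr6a1 lie to the right of the dotted line in all 8 libraries.

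Most of the receptor regions, 113 of 208, came from 4 genes: 56 from Esrrg, 24 from Thrb, 22 from Rarb and 11 from Hnf4g. Esrrg encodes an orphan receptor active in oxidative muscle and heart, Thrb and Rarb encode hormone receptors known outside the immune system, and Hnf4g a gut and liver factor. The median number of regions per gene was 2, and 10 of 19343 genes had at least as many as Esrrg. Their regions of 1000 bp or more had medians of 3.93 CPM per kb for Esrrg, 3.68 for Thrb, 3.90 for Rarb and 3.93 for Hnf4g, under the median of 4.04 for all such regions and under 4.59 for those of the other receptor genes. The Esrrg regions together covered 401 kb and read 1437.5 and 1429 CPM for spleen Tregs, 1509 and 1842 for male VAT Tregs, 1568 and 1465 for female VAT Tregs and 1787 and 1636 for CD4+ T cells. Replicate 2 of male VAT Tregs was the highest and both spleen libraries the lowest.

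Regions of Esrrg, Thrb and Rarb leaned one way against spleen without passing the test, and those of Hnf4g did not lean with them. Of the 102 tested at the first 3 genes, 91 had a fold change above 0 for male VAT Tregs over spleen, with a median of 0.17, whereas at Hnf4g 3 of 9 did, with a median of -0.30. Of all regions, 13267 of 29346 of 1000 bp or more lay above 0, with a median of -0.03. None of the 111 at the 4 genes was called by edgeR or by the DESeq2 Wald test, limma-voom called 1 higher, and 10 had an unadjusted p under 0.05. Neighbouring regions of a gene are not independent, and the lean depended on 1 library: the median over the 102 regions was 0.04 without male VAT Treg replicate 2, when 56 lay above 0. It fell to 0.03 with scaling on the short regions. Against CD4+ T cells the same 102 regions had a median of -0.03, with 46 above 0; with library size alone it was 0.10 and with scaling on the short regions -0.25.

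**Figure D5:**
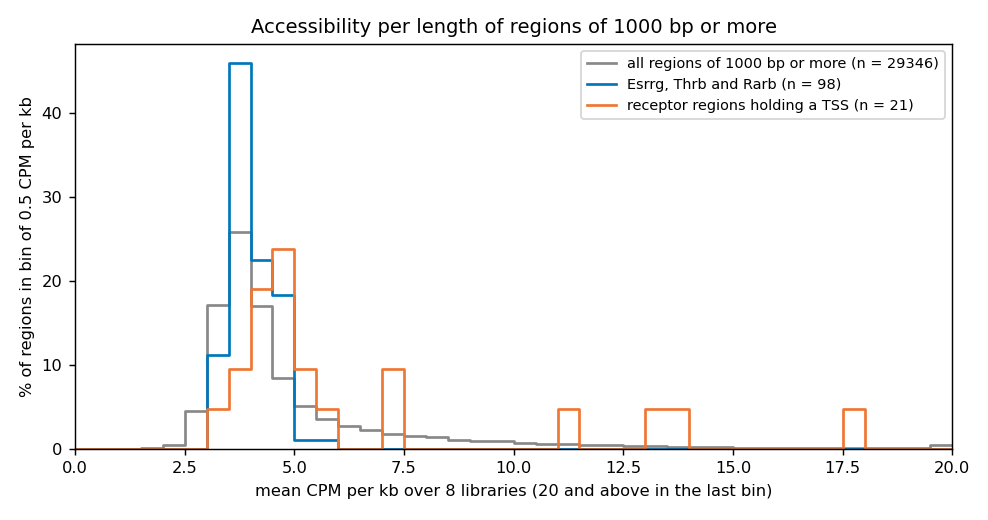
Share of regions (vertical axis, in percent per bin of 0.5) by their mean CPM per kb over the 8 libraries (horizontal axis), for all regions of 1000 bp or more, for those of Esrrg, Thrb and Rarb, and for receptor regions that hold a start site. The Esrrg, Thrb and Rarb regions pile up at 3.5 to 4 CPM per kb, and the start sites reach farther to the right.

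The genes that work with the receptors were examined in 8 lists of 81 genes, described by their counts. Chaperones of the steroid receptors (16 regions) and PPAR target genes (16 regions) had no call in any comparison; at an unadjusted p under 0.05 the chaperones had 5 lower between the sexes, 2 lower against spleen and 1 higher against CD4+ T cells. The PPAR targets had 2 higher and 3 lower, 1 and 1, and 2 and 1. The DESeq2 Wald test called 0 in both lists, and limma-voom called 1 chaperone region lower between the sexes and 1 against spleen. Coactivators had 3 regions higher and 2 lower of 77 between the sexes, 4 and 2 against spleen, and 3 and 1 against CD4+ T cells. These are 6.49%, 7.79% and 5.19% of the list, beside 3.26%, 6.73% and 7.69% of all regions, so that the share was near the background against spleen and under it against CD4+ T cells. Corepressors had 3 higher and 2 lower of 57, then 5 and 6, and 7 and 3, or 8.77%, 19.3% and 17.5% beside the same background.

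A region of Cited2, which encodes a transcriptional adaptor that binds CBP and p300, was among the most changed coactivator regions in all 3 comparisons. It is 232 bp long (chr10:17584944-17585175) and read 0.849 and 2.09 CPM for spleen Tregs, 8.997 and 5.97 for male VAT Tregs, 1.90 and 1.53 for female VAT Tregs and 0.578 and 1.01 for CD4+ T cells. Both male VAT Treg libraries lay above the other 6, with changes of 2.13 ± 0.41 against females (edgeR adjusted p = 5.91e-05), 2.24 ± 0.40 against spleen and 3.19 ± 0.50 against CD4+ T cells, and the calls held in all 14 alternatives of each comparison. The corepressor gene Ncor1 had a 598 bp region (chr11:62466504-62467101, assigned to Pigl too) with 27.4 and 8.53 CPM for male VAT Tregs and 2.74 to 6.16 in the other 6 libraries. Its changes of 1.88, 1.90 and 2.10 were lost without male VAT Treg replicate 1, at 0.78, 0.80 and 0.99 with adjusted p-values of 0.247, 0.167 and 0.122. Ncoa2, which encodes a p160 coactivator, had 3 regions higher and 1 lower than in spleen. The one with the smallest p (chr1:13425458-13428631) read 12.002 and 12.3 CPM for spleen Tregs and 26.0 and 22.7 for male VAT Tregs (1.01 ± 0.20). It read 22.0 and 24.8 CPM for female VAT Tregs and 18.5 and 27.1 for CD4+ T cells, and both groups overlapped male VAT Tregs. The call against spleen held in all 14 alternatives.

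Glucocorticoid target genes had 0 of 40 tested regions called between the sexes, with 1 higher and 7 lower where p before adjustment was under 0.05 and 0 called by the DESeq2 Wald test and by limma-voom. Against spleen 3 were higher and 2 lower, and against CD4+ T cells 2 were higher and 5 lower, which is 12.5% and 17.5% of the list beside 6.73% and 7.69% of all regions. All the lower ones against CD4+ T cells were neighbouring regions of the single gene Klf13, save a region of Sgk1. Sgk1, which encodes a kinase induced by glucocorticoids and aldosterone, moved both ways. Its 576 bp region (chr10:21946682-21947257) read 8.12 and 5.85 CPM for spleen Tregs, 18.6 and 14.8 for male VAT Tregs, 16.0 and 15.4 for female VAT Tregs and 4.43 and 10.4 for CD4+ T cells, and changed by 1.30 ± 0.23 against spleen (edgeR adjusted p = 4.90e-06), held in all 14 alternatives. Its 184 bp region farther off (chr10:21911603-21911786) read 0.887 and 1.07 CPM for male VAT Tregs against 4.73 and 1.91 in spleen, and changed by -1.70 ± 0.49. It passed in 10 of 14 alternatives and not without replicate 1 of male VAT Tregs (-1.54, adjusted p = 0.13) or of spleen Tregs (-0.98, adjusted p = 0.487). Of the other called targets, Nfkbia (0.73 ± 0.17) and Dusp1 (0.93 ± 0.22) were higher and Klf13 (-0.98 ± 0.22) lower against spleen. Without male VAT Treg replicate 1 the first 2 were no longer called (0.27, adjusted p = 0.403, and 0.48, adjusted p = 0.315), nor without spleen replicate 1 (adjusted p = 0.0954 and 0.056), and Klf13 was not called without spleen replicate 2 (adjusted p = 0.0542).

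Partners of the REV-ERBs in the clock had 1 region higher and 1 lower of 37 between the sexes, 6 and 4 against spleen, and 4 and 0 against CD4+ T cells, where 2 lower ones had an unadjusted p under 0.05 and the DESeq2 Wald test and limma-voom called 0 lower. The called shares were 5.41%, 27% and 10.8%, beside 3.26%, 6.73% and 7.69% of all regions. Hlf, which encodes a clock-output factor of the PAR bZIP family, read 1.33 and 1.91 CPM for spleen Tregs and 11.7 and 7.04 for male VAT Tregs at a 428 bp region (2.49 ± 0.33). Nfil3, a repressor of the same target sites, had 3 regions higher in male VAT Tregs than in spleen, of which the strongest read 3.76 and 4.30 CPM in spleen and 18.1 and 11.3 for male VAT Tregs (1.87 ± 0.26). Both the Hlf and this Nfil3 call against spleen held in all 14 alternatives. A region of Tef, another PAR bZIP gene, was lower in male VAT Tregs (-1.07 ± 0.25) and is assigned to Gm17597 and Zc3h7b too. Also lower was a 4262 bp region of Arntl, the gene of the clock activator BMAL1 (-0.91 ± 0.22). A 148 bp region of Arntl (chr7:113183977-113184124) went the other way, at 0.242 and 1.07 CPM for spleen Tregs and 2.85 and 2.88 for male VAT Tregs (1.93 ± 0.59, edgeR adjusted p = 0.0239). It passed in 8 of 14 alternatives and not without either male VAT Treg library (adjusted p = 0.146 and 0.11) or spleen replicate 1 (0.266). The longer Arntl region did not pass without male VAT Treg replicate 1 (adjusted p = 0.0814), nor Tef without spleen replicate 2 (adjusted p = 0.0633).

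Enzymes of receptor ligands had 23 regions, with 1 called against spleen and 1 against CD4+ T cells (4.35% in each, under the 6.73% and 7.69% of all regions) and 0 between the sexes (1 higher and 2 lower with p under 0.05 before adjustment, and 0 by both other tools). Dhrs3, which reduces retinaldehyde to retinol, read 1.82 and 2.15 CPM for spleen Tregs and 6.34 and 6.29 for male VAT Tregs (1.64 ± 0.37, edgeR adjusted p = 5.68e-04). Hsd11b1, which regenerates active glucocorticoid from its inert form, read 0.963 and 0.289 CPM for CD4+ T cells and 4.37 and 3.2 for male VAT Tregs (2.68 ± 0.60), a call lost without CD4+ replicate 2 (1.98, adjusted p = 0.0947). LXR target genes had 0 higher and 1 lower of 19 against spleen (5.26%) and 0 and 2 against CD4+ T cells (10.5%). Between the sexes 1 was higher and 1 lower (10.5%, where 3.26% of all regions were called). An 82 bp region of Abca1, a cholesterol exporter gene, read 2.28 and 1.71 CPM in male and 0.199 and 0.235 for female VAT Tregs. These are low values. A 166 bp region of Abcg1, its relative, read 1.14 and 1.49 against 4.29 and 3.05. By the DESeq2 Wald test neither passed (adjusted p = 0.117 and 0.165), and by limma-voom Abca1 did not (adjusted p = 0.0614). Both these sex calls were lost when single libraries were left out: Abca1 without any 1 of the 4, with adjusted p-values of 0.0574 to 0.343, and Abcg1 without male replicate 1 or either female library, up to 0.493.

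The labelled cell types were checked against marker genes. Over 58 regions of 6 Treg genes, Foxp3 among them, 21 were higher and 1 lower in male VAT Tregs than in CD4+ T cells, where 5.18% of all regions were higher and 2.51% lower. Against spleen 7 were higher and 1 lower, and between the sexes 1 was higher and 3 lower. Of 20 regions of CD4+ T cell markers, 1 was higher and 6 lower against CD4+ T cells, 1 and 1 against spleen, and 1 and 0 between the sexes. The Treg marker regions summed to 386 to 477 CPM for CD4+ T cells, 494 to 518 for spleen Tregs and 603 to 615 for female VAT Tregs. For male VAT Tregs they summed to 475 to 691 CPM, and the lower library overlapped the CD4+ T cells. The CD4+ T cell marker regions summed to 156 to 210 CPM for CD4+ T cells and 153 to 161 for spleen Tregs. They summed to 169 to 170 CPM for female and 117 to 163 for male VAT Tregs. Of markers of other cells, B cell regions summed to 74.7 to 110 CPM over the 8 libraries, myeloid to 116 to 170, CD8+ and NK cell to 104 to 124, and stromal and endothelial to 195 to 224. Adipocyte regions summed to 63.6 to 73.9 CPM for male VAT Tregs against 82.3 to 97.5 for the other 6 libraries, and 2 of 11 were lower against spleen. Of the lists of other cell types, the other calls were 1 myeloid region lower against females and 1 B cell and 1 CD8+ and NK cell region lower against CD4+ T cells. No region was assigned to the defining markers Ms4a1, Adgre1, Csf1r, Lyz2, Cd8a, Ncr1, Lep, Lpl and Pdgfrb. The part of these levels in the receptor results was not tested.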

How the data were processed

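Raw counts per region for 8 ATAC-seq libraries, not normalised, were deposited by the authors in a single table, beside log2 CPM values per library that the authors deposited and that serve 1 alternative here. Per the labels the build is GRCm38 (mm10). Subread 1.6.2, HOMER 4.9, featureCounts and limma appear in the submitters' processing notes without their role. How regions were called, and whether starts count from 0 or 1, is not given in the sources used here, so coordinates are as deposited.

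From 62205 entries, 46624 distinct regions were formed; 46512 on the numbered and sex chromosomes with a gene were kept, and filterByExpr left 45709. A single quasi-likelihood model of all libraries was fitted with edgeR 4.0.16 in R 4.3.3, using trimmed-mean-of-M factors and 4 residual degrees of freedom, with Benjamini-Hochberg adjustment over all regions and a threshold of 0.05. The standard error is the size of the log2 fold change divided by the root of its F statistic. The fit was run on simulated counts with known changes, a single spread for all regions and no outlying library. That run does not bear on how single libraries or low counts affected the calls. Named are every called receptor region, each receptor gene's region of highest mean CPM, the region of smallest p of each steroid receptor gene, and up to 4 called genes of each pathway list per comparison, of which those described were picked with their values known, with a region of such a gene called the other way where there was one. The other Nr3c1, Esr1, Esr2, Pgr and Rara regions, and those of Vdr, Nr1h2 and Rxrb given for their start or p, were chosen after their values were seen. Receptors and lists were chosen with earlier results of these data known. Start sites, matched by symbol for 37 of 41 receptor genes, come from a RefSeq table of GRCm38.p6. DESeq2 1.42.0 and limma 3.58.1 (limma-voom) served as alternatives, beside other scalings, filters, a replicate block and leaving out each library.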

Additional observations from a re-analysis of the deposited data

How the results depend on the processing

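Each count of called receptor regions was recomputed under 10 alternatives and without each library in turn. Between male and female VAT Tregs (2 higher, 0 lower), the count higher was 1 with loess offsets, the DESeq2 Wald test and limma on the deposited log2 CPM, and the count lower was 1 with scaling on the short regions and 2 with loess offsets and with limma-voom. Against CD4+ T cells (4 higher, 3 lower), the count higher was 1 with scaling on the short regions; the count lower was 5 with that scaling, 1 with DESeq2 size factors and with limma-voom, and 0 with library size alone, loess offsets, the 4 libraries alone and the DESeq2 Wald test. Against spleen (4 higher, 1 lower), the count higher was 1 with scaling on the short regions and 2 with the DESeq2 Wald test, and the count lower was 0 with library size alone, the 4 libraries alone, the DESeq2 Wald test and limma on the deposited values. Leaving out 1 library moved the counts from 0 to 3 higher and 0 to 5 lower between the sexes, 0 to 5 and 0 to 2 against CD4+ T cells, and 1 to 6 and 0 to 3 against spleen.

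All 14 receptor calls were lost without at least 1 library, 9 of them without male VAT Treg replicate 1; of 52 calls in the pathway lists that were followed through the alternatives, 10 kept their call in every one and 32 were lost without that library. Scaling on the short regions moved the median log2 fold change of all regions to -0.08 between the sexes, -0.16 against spleen and -0.26 against CD4+ T cells, and library size alone moved it to 0.11 against CD4+ T cells. Among uncalled regions, the sign was followed one by one only for the region of smallest p of each steroid receptor gene. Of these, 3 changed sign when 1 library was left out. Esr2 region 1 did so between the sexes (-0.0066 without female replicate 1, range to 0.4808). Against CD4+ T cells Esr1 region 3 (-1.464 to 0.149) and Pgr region 3 (-0.669 to 0.221) did, both above 0 without CD4+ replicate 1. Libraries with the same number did not deviate together (correlations of -0.15 to 0.07 over regions), and no label says that a number marks a shared batch; with the replicate block, the counts were 2 higher and 0 lower between the sexes, 3 and 0 against CD4+ T cells and 4 and 0 against spleen. The causes of these changes were not tested. With 2 libraries a group and counts as low as 2 in a short region, small changes were not detectable at this depth.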
